A study of Mus musculus with 6 samples.

Results

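Ribosome biogenesis genes were followed here as a named set of 38 mouse genes out of the 23282 genes counted in the series. Each symbol on the list was matched to the gene number in the count tables, and all 38 were found. The rule takes no value from the files, although the list was drawn up with earlier results of these data known. The set was described in 5 role groups, namely 6 abundant nucleolar proteins, 3 subunits of RNA polymerase I, 8 proteins of the small nucleolar ribonucleoproteins (snoRNPs), 10 factors of small-subunit assembly and 11 factors of large-subunit assembly.

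Ribosomes are made in the nucleolus, where RNA polymerase I transcribes the precursor of the ribosomal RNAs. The snoRNPs then methylate and pseudouridylate that precursor, and separate sets of assembly factors cut, fold and export the small and the large subunit. Output of this pathway follows cell growth, and MYC, a transcription factor that binds the E-box CACGTG, is a well-known activator of many of its genes in blood cells and leukaemia.

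The series compares gene expression after loss of Mll4 (gene symbol Kmt2d, a histone H3 lysine 4 methyltransferase of enhancers) and after expression of the transcription factor FOXO3, in mouse blood stem and progenitor cells and in leukaemic cells. All animals were of strain 129/Sv x C57BL/6, and RNA-seq read counts of 9 libraries from 6 samples were used. MLL-AF9 cells are bone marrow cells transformed with a retrovirus carrying the leukaemia fusion gene MLL-AF9. In the Mll4-deleted MLL-AF9 group (2 libraries), transformed Mll4f/f marrow was infected with a retrovirus carrying Cre recombinase and Tomato Red. Its counterpart, the Mll4-intact group (2 libraries), was the same kind of Mll4f/f marrow infected with an empty Tomato Red vector, so that Cre is present in the deleted cells alone and its effect cannot be told apart from the deletion. Both were sorted 5 days after infection and are labelled with 14 days of growth. In the FOXO3 group (2 libraries), MLL4-/- marrow received MLL-AF9-neo together with a FOXO3-IRES-GFP retrovirus, and its counterpart (1 library) received MLL-AF9-neo with the empty vector. These cells were selected in G418, sorted for GFP and also labelled with 14 days of growth, and both arms are labelled as lacking Mll4. LSK cells are lineage-negative marrow cells with Sca1 and c-Kit on their surface, which include the blood stem cells. The library of LSK cells labelled Mll4 deleted (1) came from Mll4f/f mice carrying MxCre, a Cre gene that polyIC switches on through interferon, and the WT library (1) from MxCre-carrying littermates. Both were given polyIC and used at 2 months of age, and each library was amplified by PCR from about 50 picked cells.

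Library totals were 25895041 and 26599883 counts in LSK cells and 31713351 to 61950773 in MLL-AF9 cells. Kmt2d stood at 95.6 and 73.7 CPM (counts per 1000000 of the library total) in the Mll4-deleted MLL-AF9 libraries and 79.5 and 61.7 CPM in the intact ones, at 102 and 115 CPM with FOXO3 against 116 CPM with the empty vector, both labelled MLL4-/-, and at 13.9 CPM in the LSK library labelled Mll4 deleted against 1.88 CPM in WT. A count over the whole gene does not show a deletion of some exons, so these values do not check the genotypes, and in LSK cells they run against the label, while the libraries labelled MLL4-/- had the most Kmt2d of all. Foxo3 reached 1292 and 1309 CPM in the FOXO3 libraries against 27.3 CPM with the empty vector. Both FOXO3 libraries differed from each other by little more than read sampling, with a chi-square per degree of freedom of 2.01 across genes, against 201 in the deleted pair and 154 in the intact pair. The labels do not say that libraries of a group were separate cultures, so p-values measure the spread between these libraries, and counts of calls are given below also with the FOXO3 pair summed into 1 library. Xist was high in 1 deleted library (771 CPM) and 1 intact library (687 CPM) and at most 3.65 CPM in the rest, so each of these pairs joined female and male cells. In LSK cells Kit stood at 102 CPM under the Mll4-deleted label against 46.8 CPM in WT. Ly6a, which encodes Sca1, stood at 28.2 CPM under that label against 80.2 CPM in WT. Of 8 listed LSK markers, these included, 1 was at least 2-fold higher under that label and 5 at least 2-fold lower. The shares of the 10174 genes averaging 1 CPM or more were 28.1% and 34.9%. Slamf1 had 0 counts under that label against 799 in WT, and Procr 12.8 CPM against 181 CPM. In the same cells 7 markers of mature lineages summed to 0.541 CPM under the Mll4-deleted label and 0.677 CPM in WT.

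The promoters of the set show the sequence in which its regulators are usually sought. A window from 250 bases before to 50 bases after the transcription start (RefSeq, GRCm38.p6) was available for 33 members. The E-box CACGTG, on either strand, occurred in the windows of 8 of the 33 members (24.2%), against 8.09% of all 27025 genes with a window and 11% of the 11800 such genes tested in MLL-AF9 cells. The ETS-factor motif CCGGAAGT, on either strand and sharing no overlap with the E-box letters, also occurred in 8 of 33 (24.2%), against 4.31% of all genes and 8.09% of those tested. The promoters below are shown because they stand for the patterns that occur, namely neither motif in Nop10, the member with the largest rise after Mll4 deletion, an ETS motif in Gar1, an E-box in Nop2 and both in Tsr1. Each is given 5′ to 3′ on the strand of the gene, from chr2:112261676-112261975 (plus strand) for Nop10, chr3:129831347-129831646 (minus strand) for Gar1, chr6:125131633-125131932 (plus strand) for Nop2 and chr11:74897830-74898129 (plus strand) for Tsr1, with a motif in capitals.
Nop10: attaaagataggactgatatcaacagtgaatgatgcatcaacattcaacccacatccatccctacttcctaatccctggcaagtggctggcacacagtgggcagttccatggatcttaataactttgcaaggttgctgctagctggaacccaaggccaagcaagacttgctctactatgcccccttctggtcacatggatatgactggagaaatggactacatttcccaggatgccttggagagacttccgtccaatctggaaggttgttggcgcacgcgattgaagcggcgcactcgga
Gar1: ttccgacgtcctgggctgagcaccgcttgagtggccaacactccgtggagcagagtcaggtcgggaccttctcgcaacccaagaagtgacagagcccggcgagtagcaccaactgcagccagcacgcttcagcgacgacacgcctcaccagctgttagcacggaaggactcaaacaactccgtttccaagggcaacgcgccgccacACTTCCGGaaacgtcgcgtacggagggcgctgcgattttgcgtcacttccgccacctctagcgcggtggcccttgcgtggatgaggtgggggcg
Nop2: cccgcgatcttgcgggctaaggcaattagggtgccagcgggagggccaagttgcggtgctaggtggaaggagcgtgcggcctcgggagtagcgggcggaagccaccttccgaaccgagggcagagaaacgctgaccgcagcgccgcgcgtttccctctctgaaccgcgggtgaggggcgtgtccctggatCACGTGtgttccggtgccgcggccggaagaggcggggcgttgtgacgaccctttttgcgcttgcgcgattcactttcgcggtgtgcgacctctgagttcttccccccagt
Tsr1: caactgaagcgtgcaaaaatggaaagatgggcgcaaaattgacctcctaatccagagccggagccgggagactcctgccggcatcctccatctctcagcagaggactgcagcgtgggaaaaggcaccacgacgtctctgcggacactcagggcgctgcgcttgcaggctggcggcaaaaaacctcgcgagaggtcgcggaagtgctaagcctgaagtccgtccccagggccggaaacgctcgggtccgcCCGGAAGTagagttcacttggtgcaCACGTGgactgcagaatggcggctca
Counted from the start site, the ETS motif of Gar1 begins 44 bases upstream and the E-box of Nop2 60 bases upstream, while in Tsr1 the ETS motif begins at the last base before the start and the E-box 25 bases into the transcript. The remaining E-box members were Ltv1, Mdn1, Mybbp1a, Pes1, Utp20 and Wdr43. Among members with a window, 2 of the 14 that passed the test for Mll4 deletion and 6 of the 19 that did not carried an E-box, which is a description of these windows and says nothing of binding.

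Across the MLL-AF9 libraries the set stood in a nearly fixed order, lowest in Mll4-intact cells, higher in Mll4-deleted cells, and higher again in both kinds of MLL4-/- cells. The CPM of the 38 genes summed to 5245 and 4621 in Mll4-deleted libraries against 3007 and 2808 in intact ones, a ratio of means of 1.70. With TMM scaling, which corrects library totals for differences in composition, the ratio was 1.40. The sum was 7698 and 7624 CPM with FOXO3 against 9408 CPM with the empty vector, a ratio of 0.814, or 0.788 with TMM scaling. It came to 4281 CPM in the LSK library labelled Mll4 deleted, against 5263 CPM in the WT library. LSK and MLL-AF9 libraries were made by different protocols, so cell type and protocol cannot be told apart in that contrast.

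**Figure D1:**
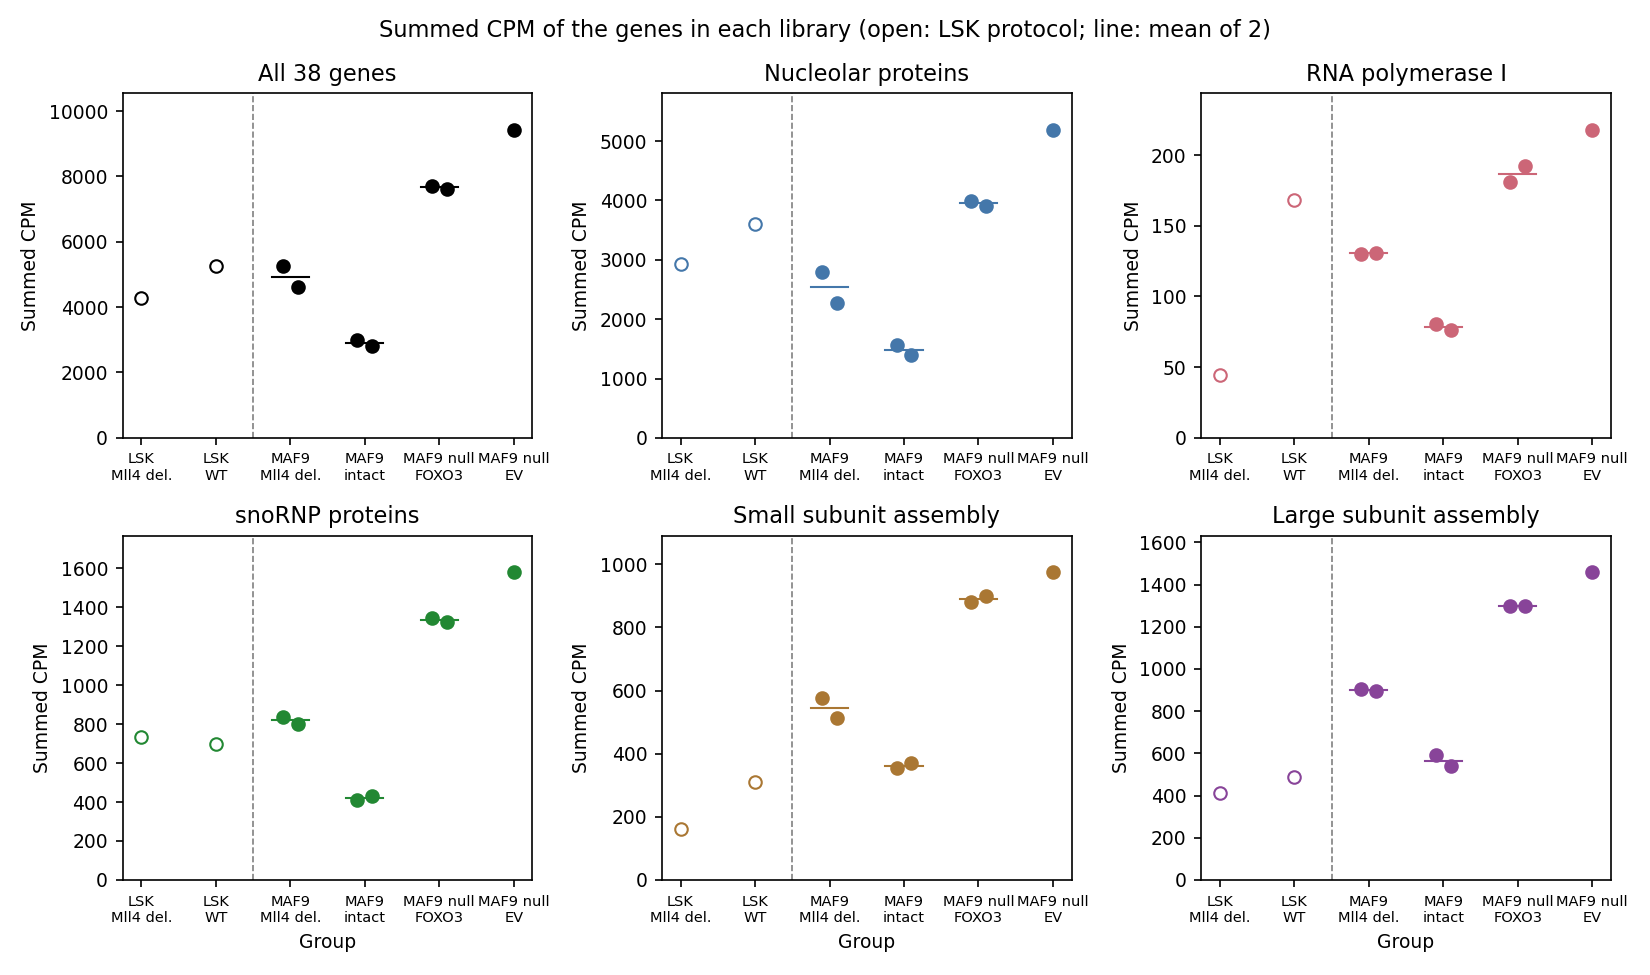
Summed CPM of all 38 ribosome biogenesis genes and of the 5 role groups in each library, with a line at the mean of groups of 2 libraries and open points for the LSK protocol. In all panels the Mll4-deleted MLL-AF9 libraries lie above the intact ones and the empty-vector library (EV) lies above both FOXO3 libraries, with totals of 5245 and 4621 against 3007 and 2808 and of 7698 and 7624 against 9408.

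Gene by gene, all 3 MLL4-/- libraries exceeded all 4 libraries of Mll4f/f origin for 37 of 38 members, whereas 33.0% of all 14997 genes tested did so. The exception was Nip7. Both intact libraries were the lowest of the 7 for 36 members (34.2% of all genes), and the empty-vector library was the highest for 31 (21.4%). The MLL4-/- cells came from a separate transformation, with another selection and sort, so these differences of level cannot be told apart from the way the cells were made, and no test was run between the 2 kinds of culture.

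**Figure D2:**
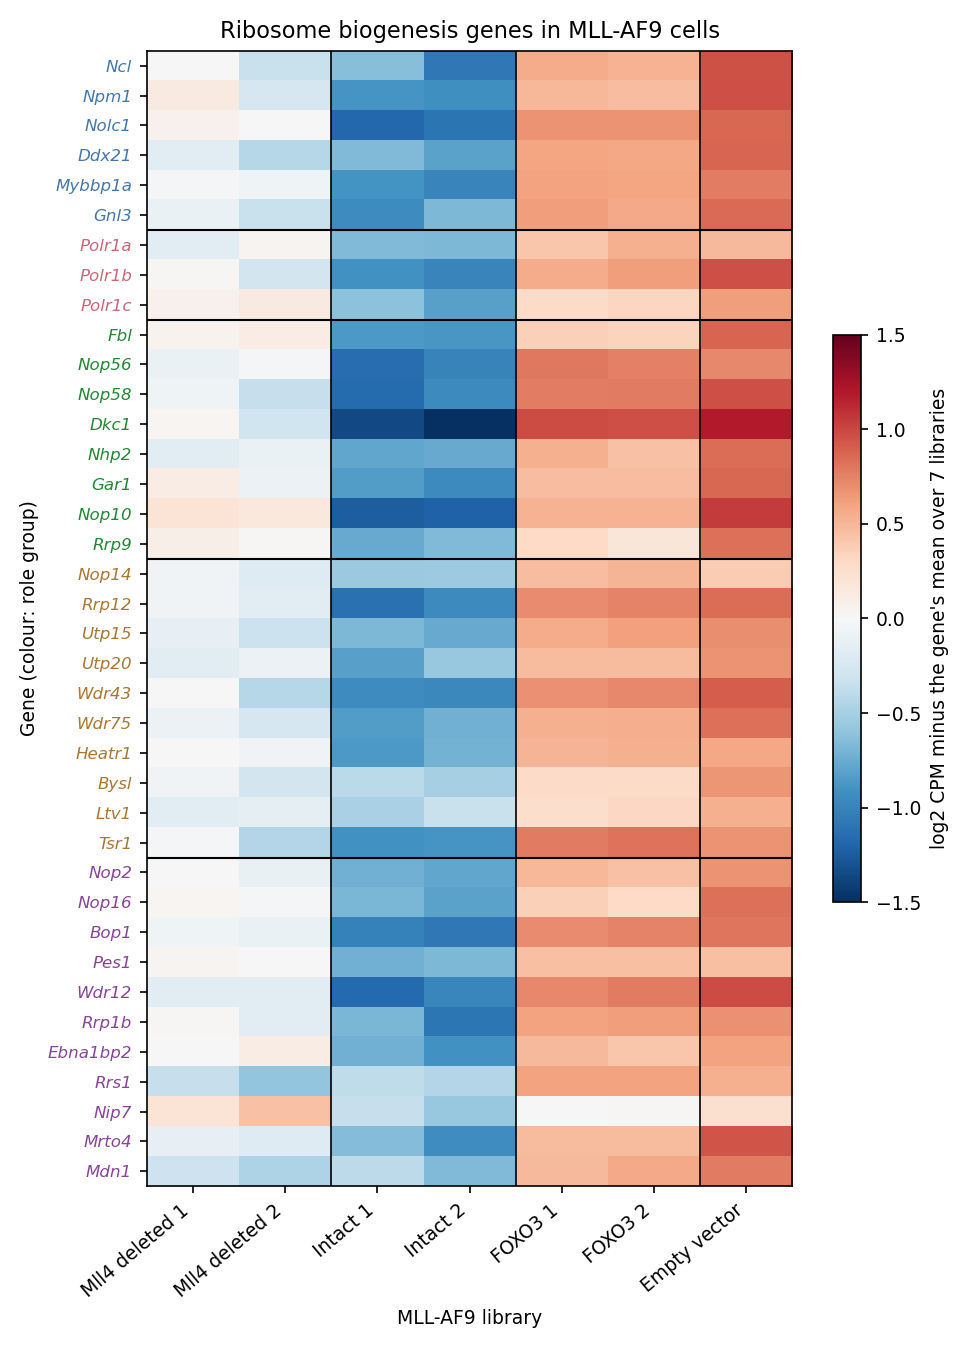
log2 CPM of each ribosome biogenesis gene minus its own mean over the 7 MLL-AF9 libraries, with genes in rows coloured by role group and libraries in columns. The intact columns are the lowest for 36 of 38 genes and the empty-vector column is the highest for 31 of 38.

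The first question was how the set changed when Mll4 was deleted in MLL-AF9 cells. Of the 38 genes 17 rose and none fell at an adjusted p of 0.05 or less (edgeR quasi-likelihood test, Benjamini-Hochberg over 14997 genes), against 7.97% of all genes higher and 6.94% lower. DESeq2 called 25 higher and 0 lower, against 12.8% and 11.8% of all genes, and at an unadjusted p under 0.05 edgeR had 28 higher and 1 lower, against 16.7% and 17.2% of all genes. The median log2 fold change was 0.47, against -0.03 over all genes tested, and 35 of the 38 estimates were positive, against 47.7% of all genes, with 52.3% negative. Both deleted libraries had more CPM than both intact libraries for 36 members, a pattern shown by 43.4% of all genes in CPM, which are not corrected for composition. The other two, Rrs1 and Mdn1, overlapped.

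These calls rest on the spread estimated from all 7 libraries. That holds for DESeq2 as well, which was not run with the FOXO3 pair summed. With the FOXO3 pair summed into 1 library the median was 0.54, but 1 member, Nop10, was called, against 1.23% of all genes higher and 0.854% lower, and 26 were higher at an unadjusted p under 0.05, against 14.4% of all genes. The count was 3 without intact library 1, when 2.5% of all genes were called higher, 10 without intact library 2 (4.83%), 1 without FOXO3 library 1 (1.18%) or 2 (1.24%) and 24 without the empty-vector library (11.1%). It was 18 and 19 without deleted library 1 and 2 (11.8% and 10.7%), and Nop10 was called in every such fit (highest adjusted p 0.049). With the deleted and intact libraries fitted alone edgeR called no gene at all (smallest adjusted p of a member 0.0540), and 25 members were higher at an unadjusted p under 0.05, against 13.5% of all genes.

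The snoRNP proteins, which carry out the chemical modification of ribosomal RNA, gave 5 of the 17 calls from 8 members. Their median log2 fold change was 0.65, and 7.97% of all genes were called higher. Nop10, a small core protein of the pseudouridylating H/ACA particles, had 72.3 and 70.3 CPM in Mll4-deleted cells against 26.6 and 27.0 CPM in intact cells. The gap between the groups was far wider than the gap within either, and the log2 fold change was 1.13 ± 0.11 (SE; edgeR adjusted p 0.00791, and 0.0484 with the FOXO3 pair summed). Dkc1, the pseudouridine synthase of the same particles, had 96.0 and 76.7 CPM in deleted cells against 36.9 and 33.1 CPM in intact cells. It was higher in both deleted libraries by a log2 fold change of 1.02 ± 0.13 (adjusted p 0.0122, and 0.0505 with the pair summed).

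Gar1, a further H/ACA protein, had 37.1 and 32.4 CPM in Mll4-deleted cells against 19.3 and 17.7 CPM in intact cells, a log2 fold change of 0.63 ± 0.11 (edgeR adjusted p 0.0219). Fbl (fibrillarin), the methyltransferase of the box C/D particles, had 136 and 141 CPM in deleted cells against 72.0 and 71.4 CPM in intact cells, and rose by 0.67 ± 0.10 on the log2 scale (adjusted p 0.0179). Nop56, a core protein of those particles, had 212 and 223 CPM in deleted cells against 103 and 114 CPM in intact cells, and rose by 0.72 ± 0.14 (adjusted p 0.0271). None of Gar1, Fbl and Nop56 passed with the FOXO3 pair summed, when their adjusted p was 0.0843, 0.0729 and 0.084. Nhp2, the fourth H/ACA core protein, had 97.6 and 101 CPM in deleted cells against 63.1 and 64.1 CPM in intact cells. Its groups did not overlap either, but the estimate of 0.36 ± 0.11 had an adjusted p of 0.0769 by edgeR. Nop58, the partner of Nop56, and Rrp9, a protein of the U3 particle, had estimates of 0.57 and 0.47 with an adjusted p of 0.0706 and 0.0575.

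Large-subunit assembly gave 7 calls from 11 members, against 7.97% of all genes called higher, with a median of 0.46. Bop1, which forms the PeBoW complex with Pes1 and Wdr12, had 92.7 and 90.5 CPM in Mll4-deleted cells against 48.3 and 46.0 CPM in intact cells. The log2 fold change was 0.68 ± 0.09 (edgeR adjusted p 0.0141, and 0.0627 with the FOXO3 pair summed). Its partner Wdr12 had 57.5 and 57.2 CPM in deleted cells against 28.7 and 32.6 CPM in intact cells and rose by 0.62 ± 0.14 (adjusted p 0.0388, and 0.0951 with the pair summed), while Pes1 had an estimate of 0.43 ± 0.11 with an adjusted p of 0.0543. Ebna1bp2, an early large-subunit factor, had 98.8 and 107 CPM in deleted cells against 59.8 and 52.8 CPM in intact cells, a log2 fold change of 0.59 ± 0.10 (adjusted p 0.0198, and 0.0773 with the pair summed). All PeBoW members and Ebna1bp2 were thus higher in CPM in each deleted library than in each intact one, as were 43.4% of all genes tested.

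The other calls of that group were Rrp1b (0.53), Nip7 (0.50), Nop16 (0.46) and Nop2 (0.41), the last an RNA methyltransferase, with edgeR adjusted p from 0.0315 to 0.0462, and none of them passed with the FOXO3 pair summed. Mrto4, a placeholder for the ribosomal stalk, had an estimate of 0.35 ± 0.10 and an adjusted p of 0.0693. At the other end, Mdn1 (midasin), the large ATPase that strips assembly factors from the subunit, had 53.3 and 47.7 CPM in deleted cells against 50.3 and 41.7 CPM in intact cells. These ranges overlapped, and the estimate was -0.14 ± 0.11 (adjusted p 0.42). Rrs1, which helps to bring in the 5S ribosomal RNA, also overlapped, with 61.6 and 52.0 CPM in deleted cells against 60.1 and 57.6 CPM in intact cells. Its estimate, -0.33 ± 0.12, was the lowest of the set and had an adjusted p of 0.109.

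The RNA polymerase I subunits had a median of 0.54, and 2 of 3 were called, against 7.97% of all genes called higher. Polr1c, a subunit shared with RNA polymerase III, had 34.1 and 35.6 CPM in Mll4-deleted cells against 21.2 and 18.5 CPM in intact cells, a log2 fold change of 0.54 ± 0.10 (edgeR adjusted p 0.0257, and 0.101 with the FOXO3 pair summed). Polr1b, the second-largest subunit, had 46.2 and 38 CPM in deleted cells against 24.4 and 23.2 CPM in intact cells, a log2 fold change of 0.54 ± 0.13 (adjusted p 0.0448, and 0.114 with the pair summed). Polr1a, the largest subunit, had 50.0 and 57.4 CPM in deleted cells against 35.2 and 34.9 CPM in intact cells. All 3 had more CPM in both deleted libraries than in both intact ones, as did 43.4% of all genes tested. Polr1a, at 0.33 ± 0.12, had an edgeR adjusted p of 0.123.

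Of the 6 abundant nucleolar proteins 2 were called, against 7.97% of all genes called higher, with a group median of 0.50. Nolc1, which chaperones snoRNPs, had 169 and 162 CPM in Mll4-deleted cells against 71.7 and 75.7 CPM in intact cells, a log2 fold change of 0.89 ± 0.12 (edgeR adjusted p 0.0136, and 0.0577 with the FOXO3 pair summed). Mybbp1a, a nucleolar protein that binds several transcription factors, had 276 and 268 CPM in deleted cells against 151 and 141 CPM in intact cells, a log2 fold change of 0.62 ± 0.10 (adjusted p 0.0198, and 0.0857 with the pair summed). Npm1 (nucleophosmin), a histone and ribosome chaperone often mutated in acute myeloid leukaemia, had 1082 and 830 CPM in deleted cells against 534 and 523 CPM in intact cells. Its groups did not overlap, but the deleted libraries differed from each other, and the estimate of 0.57 ± 0.16 had an adjusted p of 0.0647. Ncl (nucleolin) had an estimate of 0.42 and an adjusted p of 0.14, and Gnl3 (nucleostemin), a nucleolar GTPase, had 0.31 and 0.267. Ddx21, an RNA helicase of ribosomal RNA transcription and processing, had 186 and 155 CPM in deleted cells against 132 and 119 CPM in intact cells, and its estimate of 0.17 ± 0.12 had an adjusted p of 0.387.

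Small-subunit assembly gave the smallest share, 1 call from 10 members with a median of 0.30. That share was near the 7.97% of all genes called higher. All 10 had more CPM in both deleted libraries than in both intact ones, as did 43.4% of all genes tested. Rrp12, a large repeat protein of subunit export, had 41.0 and 37.8 CPM in Mll4-deleted cells against 19.6 and 21.9 CPM in intact cells, and rose by 0.64 ± 0.14 on the log2 scale (edgeR adjusted p 0.0367, and 0.0962 with the FOXO3 pair summed). Heatr1, which links RNA polymerase I transcription to the first processing complex, had 89.1 and 85.8 CPM in deleted cells against 49.2 and 54.7 CPM in intact cells. It was separated between the groups as well, with an estimate of 0.46 ± 0.13 and an adjusted p of 0.0642. Bysl (bystin), which stays with the pre-subunit until export, had 42.0 and 36.1 CPM in deleted cells against 33.0 and 30.9 CPM in intact cells. After TMM scaling almost nothing of that difference was left, at 0.01 ± 0.11 (adjusted p 0.953). Ltv1, an export adaptor, behaved alike with -0.02 ± 0.13, and the sign of both estimates changed under other settings. The 6 remaining members, Nop14, Utp15, Utp20, Wdr43, Wdr75 and Tsr1, had estimates from 0.15 to 0.48 and adjusted p from 0.101 to 0.405. Whether the role groups differed from one another was not tested.

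**Figure D3:**
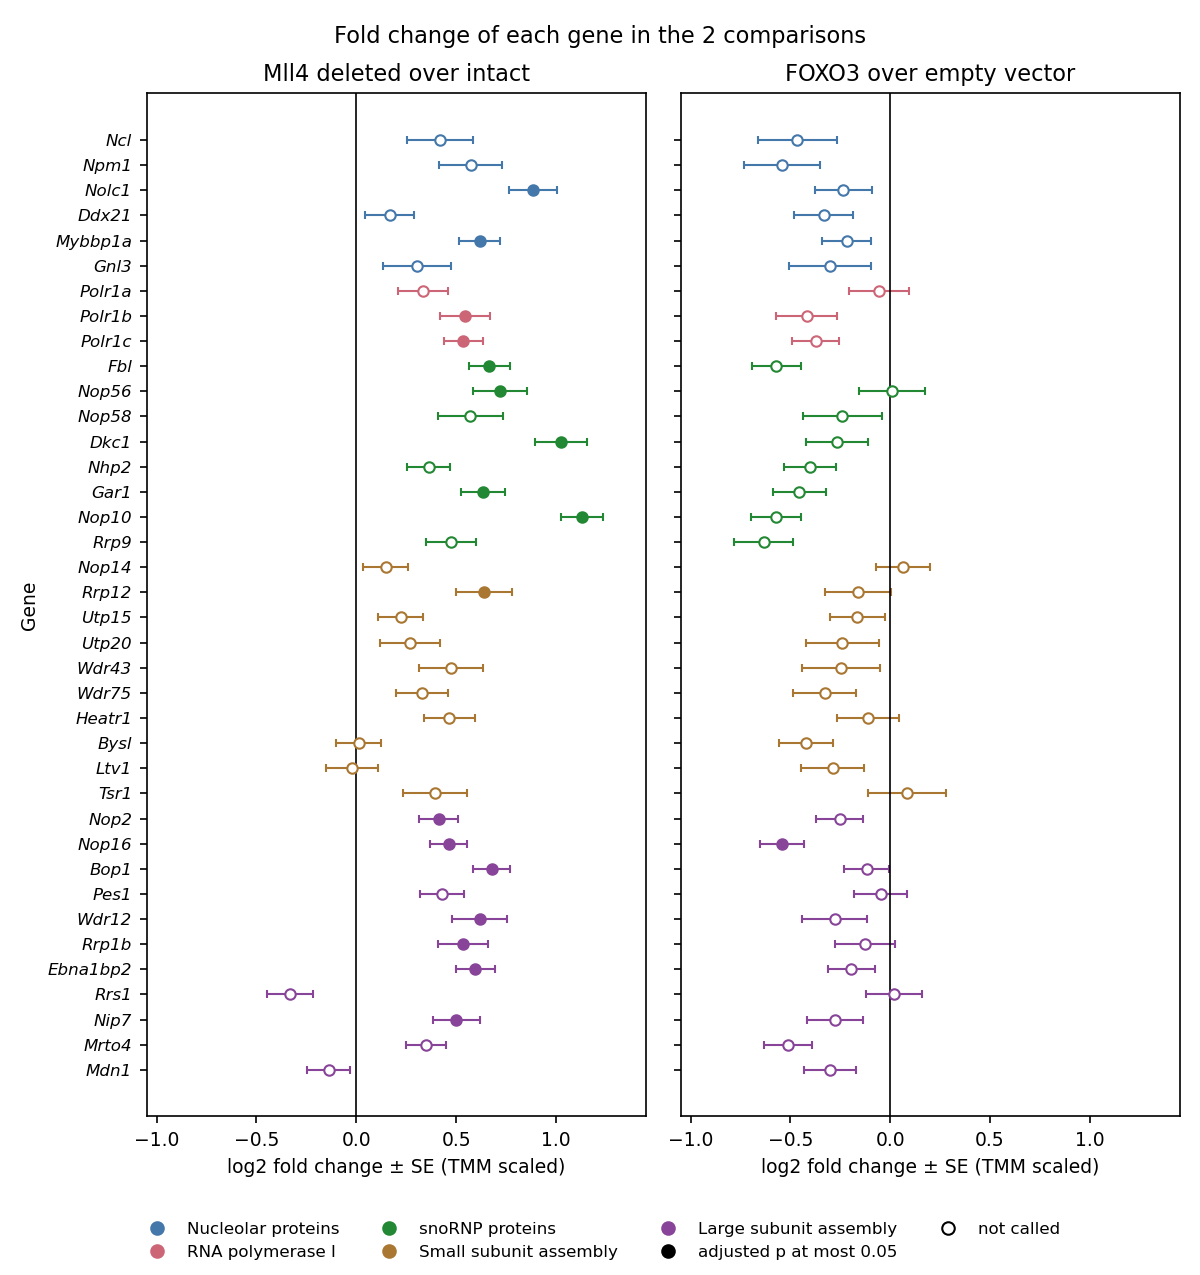
log2 fold change with SE of each ribosome biogenesis gene after Mll4 deletion (left panel) and with FOXO3 (right panel), from the edgeR fit of 7 libraries, with filled points for an adjusted p of 0.05 or less and colours for role groups. With Mll4 deletion 35 of 38 points lie above 0 and 17 are filled, and with FOXO3 34 of 38 lie below 0 and 1 is filled.

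The same direction appeared in most other assembly factors. Of 92 other assembly factors tested, out of 93 listed, 27 rose and none fell after Mll4 deletion by edgeR, against 7.97% and 6.94% of all genes. At an unadjusted p under 0.05 edgeR had 48 higher and 1 lower, against 16.7% and 17.2% of all genes. DESeq2 called 40 higher and 1 lower, against 12.8% and 11.8%. The median was 0.30, and 80 estimates were positive, against 47.7% of all genes. With the FOXO3 pair summed 2, Exosc2 and Noc4l, were called higher and none lower, against 1.23% and 0.854% of all genes. The smallest p belonged to Exosc8 and Exosc2, subunits of the RNA-trimming exosome, and Ftsj3. Exosc2 had 105 and 128 CPM in deleted cells against 48.9 and 41.5 CPM in intact cells, a log2 fold change of 1.09 ± 0.13 (adjusted p 0.0112). Exosc8 had 56.4 and 54.3 CPM in deleted cells against 26.4 and 24.1 CPM in intact cells (0.85 ± 0.09, adjusted p 0.0101). Ftsj3, a large-subunit RNA methyltransferase, had 103 and 99.7 CPM in deleted cells against 48.6 and 47.4 CPM in intact cells (0.80 ± 0.10, adjusted p 0.0112). Noc4l, a small-subunit factor added after its values were seen, had 75.9 and 71.2 CPM in deleted cells against 27.9 and 31.2 CPM in intact cells (1.03 ± 0.13, adjusted p 0.0126, and 0.0493 with the pair summed). The lowest estimates belonged to Nsa2 (-0.32, adjusted p 0.102), Sbds (-0.19) and Rrp36 (-0.19).

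None of 9 other RNA polymerase I genes tested was called by edgeR, with 2 higher and 0 lower at an unadjusted p under 0.05 and also by DESeq2. The shares of all genes were 16.7% higher and 17.2% lower at that p, and 12.8% and 11.8% by DESeq2. By edgeR 7.97% of all genes were called higher and 6.94% lower. Taf1d (0.66, adjusted p 0.0626) and Polr1e (0.56, adjusted p 0.0624) had the largest estimates. Among 8 RNAs that host snoRNAs, Snhg3 rose by 1.32 ± 0.14 (adjusted p 0.0101) and Snhg4 by 1.95 ± 0.37 (adjusted p 0.0283), whereas Snhg6 fell. Snhg6 had 15.8 and 14.2 CPM in deleted cells against 35.8 and 31.0 CPM in intact cells, a log2 fold change of -1.43 ± 0.11 (adjusted p 0.0073). With the FOXO3 pair summed Snhg3 and Snhg6 were called, against 1.23% of all genes higher and 0.854% lower.

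Of 9 regulators of the pathway none was called by edgeR for Mll4 deletion, with 1 higher and 2 lower at an unadjusted p under 0.05, against 16.7% and 17.2% of all genes. By DESeq2 1 was higher, against 12.8% of all genes. Myc had 156 and 160 CPM in Mll4-deleted cells against 73.1 and 91.4 CPM in intact cells, an estimate of 0.65 ± 0.17 with an adjusted p of 0.0586. Both deleted libraries lay above both intact ones. Mxi1, a MYC antagonist, had 55.7 and 62.7 CPM in deleted cells against 72.1 and 55.3 CPM in intact cells, an estimate of -0.38 with an adjusted p of 0.0956, and these ranges overlapped. Ubtf, which activates RNA polymerase I promoters (0.08), and Max, the partner of MYC (0.10), had estimates near 0.

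Markers of other cell states moved with the deletion. Over all genes edgeR called 7.97% higher and 6.94% lower, or 1.23% and 0.854% with the FOXO3 pair summed. DESeq2 called 12.8% and 11.8%, and at an unadjusted p under 0.05 edgeR had 16.7% higher and 17.2% lower. Of 13 genes of dividing cells 11 rose (median 1.33, 9 called with the FOXO3 pair summed), and their CPM summed to 2733 and 3189 in Mll4-deleted libraries against 1082 and 1100 in intact ones. Top2a, a topoisomerase of replicating and mitotic cells, had 372 and 390 CPM in deleted cells against 120 and 118 CPM in intact cells. Primary granule genes of immature myeloid cells summed to 9470 and 12724 CPM in deleted libraries against 1603 and 2348 CPM in intact ones, with 4 of 4 called higher. Macrophage genes summed to 2784 and 3682 CPM in deleted libraries against 4254 and 5143 CPM in intact ones. Of these 12 genes Itgax and Clec7a fell by edgeR, 3 were higher and 4 lower at an unadjusted p under 0.05, while by DESeq2 3 were higher and 3 lower, with Ccr2, C1qa and C1qb having positive estimates of 1.24, 2.11 and 1.76. Neutrophil genes summed to 10713 and 12985 CPM in deleted libraries against 11659 and 5450 CPM in intact ones, with 1 of 7 called higher and 1 lower. In bulk RNA a change in the mix of cells and a change in RNA per cell cannot be told apart, and the part of dividing or immature cells in the rise of the biogenesis genes was not tested.

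The next question was how FOXO3 changed the set in cells labelled MLL4-/-. A single gene, Nop16, fell and none rose at an adjusted p of 0.05 or less (edgeR, 7 libraries), against 4.93% of all genes lower and 2.2% higher. DESeq2 called 5 lower and 0 higher, against 9.06% and 5.51% of all genes, and at an unadjusted p under 0.05 edgeR had 11 lower and 0 higher, against 14.3% and 8.76% of all genes. Estimates were nevertheless mostly negative, with a median of -0.27, against -0.04 over all genes, and 34 of 38 below 0, against 54.7% of all genes. Both FOXO3 libraries had fewer CPM than the empty-vector library for 32 members and more for 4, against 45.3% of all genes in each direction. With the FOXO3 pair summed no member was called by edgeR, against 0.974% of all genes lower and 0.213% higher, and 3 were lower and 0 higher at an unadjusted p under 0.05, a share near the 8.52% of all genes lower. With 1 empty-vector library, the spread of that arm is taken from the other groups.

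Nop16, a large-subunit factor, had 74.3 and 71.3 CPM with FOXO3 against 103 CPM with the empty vector, a log2 fold change of -0.54 ± 0.11 (edgeR adjusted p 0.0476, and 0.368 with the pair summed). The snoRNP proteins had the lowest group median, -0.43. Fbl had 168 and 165 CPM with FOXO3 against 239 CPM with the empty vector, an estimate of -0.57 ± 0.12 (adjusted p 0.0555). Nop10 had 90.6 and 90.3 CPM with FOXO3 against 130 CPM with the empty vector (-0.57 ± 0.12, adjusted p 0.0566), and Rrp9 the lowest estimate of the set (-0.63 ± 0.15, adjusted p 0.0661). In contrast Nop56, the core partner of Fbl, had 395 and 385 CPM with FOXO3 against 375 CPM with the empty vector and an estimate of 0.01.

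Npm1 had 1390 and 1357 CPM with FOXO3 against 1934 CPM with the empty vector, and its estimate of -0.54 ± 0.19 had an edgeR adjusted p of 0.166. All 6 abundant nucleolar proteins had fewer CPM in both FOXO3 libraries than in the empty-vector library, as did 45.3% of all genes tested. Gnl3 (156 and 149 CPM with FOXO3 against 182 CPM with the empty vector) had the largest p of them, an adjusted p of 0.457. Polr1c had 39.5 and 40.7 CPM with FOXO3 against 50.3 CPM with the empty vector (-0.37 ± 0.12, adjusted p 0.132), while Polr1a, at 74.1 and 80.7 CPM with FOXO3 against 77.8 CPM with the empty vector, overlapped. In small-subunit assembly Bysl had 53.2 CPM in each FOXO3 library against 68.9 CPM with the empty vector (-0.42 ± 0.14, adjusted p 0.137). Tsr1, a late factor of the same subunit, lay above the empty vector, with 86.9 and 89.0 CPM in FOXO3 cells against 80.3 CPM, and Rrs1 did so with 119 CPM in each FOXO3 library against 113 CPM. Their estimates were 0.08 and 0.02 with adjusted p of 0.858 and 0.964.

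None of the 92 other assembly factors was called for FOXO3 by edgeR, against 2.2% of all genes higher and 4.93% lower, and their median was -0.16. At an unadjusted p under 0.05 edgeR had 4 higher and 15 lower, against 8.76% and 14.3% of all genes, so the lower share was near that of all genes. DESeq2 called 2 higher and 1 lower, against 5.51% and 9.06% of all genes. Myc had 310 and 318 CPM with FOXO3 against 296 CPM with the empty vector (0.04, adjusted p 0.947), and Mxi1 had 129 and 123 CPM with FOXO3 against 79.6 CPM with the empty vector (0.62 ± 0.16, adjusted p 0.0798). Genes of dividing cells summed to 5434 and 5463 CPM with FOXO3 against 5121 CPM with the empty vector, and none of 13 was called by edgeR (1 higher at an unadjusted p under 0.05, and 1 by DESeq2). After TMM scaling 9 of the 13 had a negative estimate and the median was -0.08. Macrophage genes summed to 46.1 and 47.8 CPM with FOXO3 against 167 CPM with the empty vector. By edgeR 7 of 12 fell, against 4.93% of all genes, or 2 with the FOXO3 pair summed, against 0.974%. Neutrophil genes summed to 3435 and 3327 CPM with FOXO3 against 7924 CPM with the empty vector, with 1 of 7 lower by edgeR and 6 by DESeq2. Primary granule genes summed to 18671 and 18624 CPM with FOXO3 against 11629 CPM with the empty vector, with none of 4 called by edgeR and 1 higher by DESeq2 and at an unadjusted p under 0.05. Their part in the lower values of the biogenesis genes was not tested.

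The fit of 7 libraries also allowed the effect of Mll4 deletion and that of FOXO3, which share no library, to be compared directly. The deletion effect minus the FOXO3 effect was called positive for 16 members and negative for none (edgeR adjusted p 0.05 or less), against 7.12% and 4.06% of all genes. At an unadjusted p under 0.05 edgeR had 28 positive and 0 negative, against 18.4% and 12.8% of all genes, and DESeq2 called 23 positive and 0 negative, against 12.9% and 8.86% of all genes. The median difference was 0.77, against 0.06 over all genes. By role, 6 of 8 snoRNP proteins, 5 of 11 large-subunit factors, 3 of 6 abundant nucleolar proteins, 2 of 3 polymerase subunits and 0 of 10 small-subunit factors passed. The largest difference was that of Nop10, 1.70 ± 0.16 (adjusted p 0.00823), followed by Dkc1 with 1.29 ± 0.20 (adjusted p 0.0215) and Fbl with 1.24 ± 0.16 (adjusted p 0.0157).

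For 32 members the estimate was positive with Mll4 deletion and negative with FOXO3. Taken separately, 47.7% of all genes were positive with Mll4 deletion and 54.7% negative with FOXO3. The share of all genes with both signs was not counted. With the FOXO3 pair summed no difference was called by edgeR, against 0.0934% of all genes positive and 0.0734% negative, and Nop10 had an adjusted p of 0.0683, while 19 were positive at an unadjusted p under 0.05, against 11.9% of all genes. The count was also 0 without either FOXO3 library, when 0.0534% and 0.0601% of all genes were called positive, and it was 8 without intact library 1 (3.32%). The comparison is between 2 contrasts made in different cultures, and Mll4 deletion was not set against FOXO3 in the same cells.

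In LSK cells the set did not move in a common direction. Of the 38 genes 10 were at least 2-fold higher and 13 at least 2-fold lower in the library labelled Mll4 deleted, against 28.1% and 34.9% of the 10174 genes averaging 1 CPM or more. The median log2 ratio was -0.20, against -0.15 over those genes. With 1 library per genotype there is no replicate check and no test, and the 95% intervals given here (exact Clopper-Pearson) cover counting error only. With 63.0% of genes past 2-fold between these amplified libraries, the shares of the set lie near the background.

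Among the snoRNP proteins 4 of 8 were at least 2-fold higher and 1 lower, against 28.1% and 34.9% of all genes. Nop10 had 5.56 CPM in the library labelled Mll4 deleted against 0.113 CPM in WT, or 144 and 3 counts, a log2 ratio of 5.62 (4.05 to 7.92). Rrp9 had 43.0 CPM in the library labelled Mll4 deleted and 2.59 CPM in WT, a log2 ratio of 4.05 (3.70 to 4.42). Gar1 and Nop58, with log2 ratios of 3.22 and 2.87, were the other two past 2-fold. Dkc1, however, had 52.2 CPM in the library labelled Mll4 deleted and 138 CPM in WT, a log2 ratio of -1.40 (-1.49 to -1.31). Proteins of a single H/ACA particle thus lay on opposite sides, in a pair of single libraries where 63.0% of genes were past 2-fold.

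In large-subunit assembly Bop1 had 40.4 CPM in the library labelled Mll4 deleted and 0.752 CPM in WT, a log2 ratio of 5.75 (5.11 to 6.46), whereas its complex partner Wdr12 had 13.2 CPM in the library labelled Mll4 deleted and 55.3 CPM in WT, a log2 ratio of -2.06 (-2.24 to -1.89). Small-subunit factors included 2 members at least 2-fold higher and 6 lower, against 28.1% and 34.9% of all genes. Wdr75 had 359 counts in the library labelled Mll4 deleted and 4 in WT, a log2 ratio of 6.53 (5.16 to 8.41). Utp20, a processing factor of that subunit, had 0 counts in the library labelled Mll4 deleted against 557 in WT, and was at least 180.7-fold lower when 3 counts, the limit that a count of 0 allows, are put in place of 0. Tsr1 had 2 counts in the library labelled Mll4 deleted against 132 in WT, and Utp15 had 13.1 CPM in the library labelled Mll4 deleted against 11.7 CPM in WT, with a log2 ratio of 0.17 whose interval includes 0. Wdr75, Utp20 and Tsr1 thus each had 4 or fewer counts in 1 of the libraries.

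No RNA polymerase I subunit or abundant nucleolar protein was at least 2-fold higher. Polr1c had 20.2 CPM in the library labelled Mll4 deleted and 100 CPM in WT, a log2 ratio of -2.31 (-2.45 to -2.18), and Polr1b had 15.9 CPM in the library labelled Mll4 deleted and 61.5 CPM in WT, a log2 ratio of -1.95 (-2.11 to -1.79). Nolc1 had 11.4 CPM in the library labelled Mll4 deleted and 58.4 CPM in WT, a log2 ratio of -2.36 (-2.54 to -2.18). Ncl, with 416 CPM in the library labelled Mll4 deleted and 333 CPM in WT, had a log2 ratio of 0.32 (0.28 to 0.36). Myc had 627 CPM in the library labelled Mll4 deleted and 403 CPM in WT, and genes of dividing cells summed to 2606 CPM in the library labelled Mll4 deleted and 2020 CPM in WT. The higher sum did not hold gene by gene. Of these 13 genes 5 had a positive log2 ratio, and the median was -0.31. At least 2-fold higher were 2 and at least 2-fold lower 4, against 28.1% and 34.9% of all genes.

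**Figure D4:**
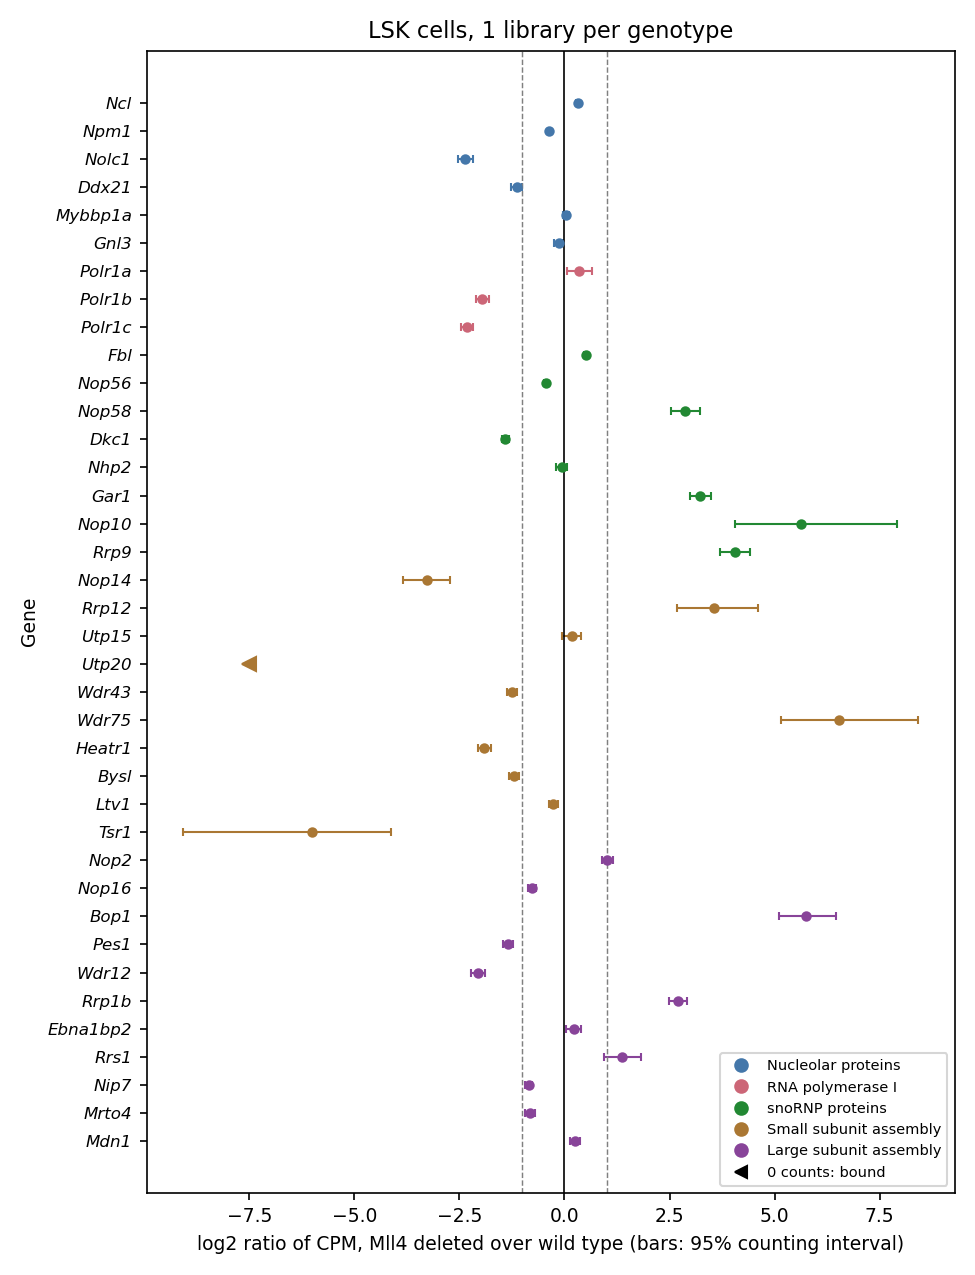
log2 ratio of CPM, library labelled Mll4 deleted over WT, for each ribosome biogenesis gene in LSK cells, with bars for the 95% counting interval, dashed lines at 2-fold and an arrowhead for the bound of Utp20, which had 0 counts in the library labelled Mll4 deleted. Genes of all role groups scatter on both sides, with 10 at least 2-fold higher and 13 at least 2-fold lower.

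Some counts of the set are uncertain because no source at hand names the counting tool or says whether it used strand. In GENCODE vM21 the exons of 16 members overlap a gene on the opposite strand, for example Bysl with Ccnd3, Mybbp1a with Spns2 and Nop56 with Idh3b, and reads of such partners could be shared. Annotated snoRNA genes lie inside 7 members, 21 in all and 5 of them in Nop56. Mrto4 has 2 named pseudogenes in that annotation. Without Npm1 and Ncl the summed CPM ratio of Mll4-deleted to intact cells was 1.69, and that of FOXO3 to empty vector 0.873.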

How the data were processed

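The deposited files hold raw read counts per NCBI gene number, whole numbers for 23282 genes, 1 table per library for 9 libraries. Per the submitters' processing notes, Bowtie 0.12.8, TopHat2 2.0.11 and build mm9 were used by the authors; the counting tool is not given in the sources used here, nor is the annotation or strand setting. Symbols came from the RefSeq table of GRCm38.p6 (23185 gene numbers matched, 97 did not), another build, so its coordinates are printed for its own promoter windows only. The 97 unmatched gene numbers stayed in totals and tests.

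CPM were computed from library totals. The 7 MLL-AF9 libraries (4 groups) entered 1 edgeR 4.0.16 quasi-likelihood fit in R 4.3.3 with TMM scaling and filterByExpr, which all 38 members passed, and Benjamini-Hochberg adjustment ran over 14997 genes, with a threshold of 0.05. Errors after ± are SE of log2 fold changes. The script was tested on simulated data. LSK cells had 1 library per genotype and no test. Alternatives were other scalings, filters, robust estimation, DESeq2 1.42.0, the FOXO3 pair summed, a sex term, the compared libraries alone, a replicate block and each library left out. DESeq2 kept the FOXO3 libraries separate throughout. Library numbers come from the file headers. PCR reads carry no molecular identifiers, so intervals and limits cover counting error only.

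The members and lists were chosen with earlier results of these data known. Values in every library are printed for members taken by the same rule in each role group. These have the smallest or largest p in a comparison, or the highest or lowest LSK ratio at a mean of at least 10 CPM. Nop10, Wdr75 and Tsr1 lie below that mean in LSK cells. Further members were added after their values were seen. Noc2l and Ly6g were not analysed here, and protein sequences were not used here.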

Additional observations from a re-analysis of the deposited data

Results flagged for a closer look

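Of the 17 members called higher with Mll4 deletion in MLL-AF9 cells, 8 also had a higher LSK ratio, with an interval above 0, and 8 had a lower one, with an interval below 0. The log2 ratio of the LSK library labelled Mll4 deleted over WT was -2.36 for Nolc1, -1.95 for Polr1b, -2.31 for Polr1c, -0.43 for Nop56, -1.40 for Dkc1, -0.77 for Nop16, -2.06 for Wdr12 and -0.85 for Nip7. Each of these genes had more CPM in both Mll4-deleted MLL-AF9 libraries than in both intact ones, as did 43.4% of all genes tested. These genes were noted because the signs in the cell types are opposite, but the difference was not tested, and no direction for LSK cells can be drawn from 1 library per genotype when 63.0% of genes differ by at least 2-fold.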

How the results depend on the processing

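For Mll4 deletion the count of 17 members called higher became 32 with library totals alone, where 19.6% of all genes were called higher and the median of all genes moved to 0.24, 1 with the FOXO3 pair summed, 0 with the compared libraries alone (edgeR, no gene called, 25 members at an unadjusted p under 0.05), and 1 to 24 as each library was left out. The median of the members, 0.47, was 0.75 with library totals, 0.54 without the low-count filter, with the pair summed and with the replicate block, and 0.41 to 0.54 as each library was left out. The 1 lower call for FOXO3 became 0 with RLE scaling, library totals, no filter, the pair summed or the sex term, 2 at a mean of at least 5 CPM, 5 with DESeq2, 32 lower and 2 higher with the FOXO3 and empty-vector libraries alone, whose spread comes from the FOXO3 pair and where 35.9% of all genes were called lower and 34.1% higher, and 0 to 8 as each library was left out. The FOXO3 median, -0.27, was -0.25 with RLE, no filter or DESeq2, -0.22 with library totals, -0.27 at 5 CPM, -0.23 with the pair summed or the compared libraries alone, and -0.27 to -0.24 as each library was left out. The 16 differences between the effects became 0 with the pair summed and 0 to 21 as each library was left out. In LSK cells a minimum of 10 CPM left 6 members at least 2-fold higher and a median of -0.38, and centring on all genes gave a median of -0.051. TMM scaling gave summed CPM ratios of 1.40 and 0.788, and leaving out Npm1 and Ncl gave 0.873 for FOXO3. The other alternatives moved no count of these members by more than 1.5 times.

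Signs changed for members with estimates near 0. For Mll4 deletion, Ltv1 became 0.000873 with upper quartile scaling, 0.26 with library totals, 0.0482 without the filter, 0.0517 with the pair summed, 0.0316 with the compared libraries alone, 0.0570 with the replicate block and -0.17 to 0.14 as each library was left out. Mdn1 became 0.14 with library totals, and Bysl -0.00126 at 5 CPM and -0.0266 to 0.11 as each library was left out. For FOXO3, Pes1 became 0.000838 with library totals and Polr1a spanned -0.10 to 0.0310 as each library was left out, positive without FOXO3 library 1. For the difference between effects, Nop14 spanned -0.00227 to 0.17, negative without intact library 1.

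Same-numbered deleted and intact libraries deviated together with a correlation of 0.25 over 12422 genes. FOXO3 gave 0.01 and -0.01 with these pairs, which cannot decide on pairing because the FOXO3 libraries differed by little more than read sampling. Xist was high in deleted library 1 (771 CPM) and in intact library 2 (687 CPM). Libraries of the same number thus differed in sex, and the numbers were not taken as pairing. The replicate block, fitted without the empty-vector library, gave 19 calls. Counts limit the LSK values most, where 2 members in each library had under 10 counts.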
